A study of Mus musculus with 24 samples.

Results

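The genes described here are 37 enzymes, carriers and regulators of fatty acid oxidation, taken by symbol from a fixed list out of the 37991 gene identifiers of a mouse inguinal fat RNA-seq count table. They comprised 19 mitochondrial members, 12 peroxisomal members, 3 whose products are found in both compartments (Eci2, Ech1 and Crat) and 3 others (the cytosolic thioesterase Acot1 and the regulators Pdk4 and Ppara). All 37 symbols matched 1 identifier each, and all 37 passed the filter on low counts, so every member was tested.

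Fatty acids are shortened by beta-oxidation in mitochondria and in peroxisomes, by parallel sets of enzymes. Long chains enter mitochondria as carnitine esters through the carnitine palmitoyltransferases and a carrier, and are then cut by repeated rounds of dehydrogenation, hydration, further dehydrogenation and thiolysis, with electrons passed on by the electron transfer flavoprotein. Peroxisomes take very long, branched and dicarboxylic chains through ABC transporters, start with an oxidase in place of a dehydrogenase, and export shortened chains for the mitochondria to finish. White fat mainly stores lipid, whereas brown and beige fat oxidises it to make heat, and PPARα, the product of Ppara, is a nuclear receptor that switches on genes of both compartments.

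The samples were inguinal subcutaneous fat of female mice of 4 inbred strains, 26 weeks old, with 3 mice in each of 8 strain and diet groups. C57BL/6J is the usual laboratory strain and NZO/HiLtJ an obese, diabetes-prone one, and CAST/EiJ and WSB/EiJ descend from wild mice. Either a control diet with 17% of calories from fat or a high-fat, high-sucrose diet with 45% was fed from 4 weeks of age. The labels name no engineered allele in any group, and all mice came from 1 supplier. C57BL/6J mice carry a natural partial deletion of Nnt, a transhydrogenase of the inner mitochondrial membrane. The labels call the 3 mice of a group biological replicates, so the tests set differences against the spread between mice. That spread was estimated in 1 fit shared by all 8 groups.

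Library totals lay between 47651641 and 84009032 counts, and levels of members are CPM relative to library sizes that were scaled by trimmed means. Levels of cell type markers, single or summed, are CPM of the unscaled library totals. Adipoq, the adiponectin gene of adipocytes, lay at 4.75 CPM in the library CAST/EiJ high-fat 1, against 621 CPM or more in the other 23 libraries, and Epcam of epithelia at 175 CPM in that library. The same library held smooth muscle markers at 10227 CPM and kidney markers at 4019 CPM, against adipocyte markers at 230.8 CPM, so it lacked the defining adipocyte transcripts that its label calls for. The tests on members are therefore given for all 24 libraries and again without it, as the 23-library fit, and values with no test include it unless it is named as left out. Epcam lay at 5 CPM or more in 6 libraries in all, which were that library, C57BL/6J high-fat 1, WSB/EiJ standard 3 and all 3 WSB/EiJ high-fat libraries, so that leaving out all 6 leaves no WSB/EiJ high-fat sample. Log2 differences and adjusted p-values (edgeR's quasi-likelihood test, Benjamini-Hochberg over all genes, called at 0.05) are those of all 24 libraries unless the 23-library fit is named. Counts of members with an unadjusted p below 0.05 do not show an excess where no count of all genes stands beside them. In bulk fat, fewer cells of a type and less RNA per cell cannot be told apart.

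The regions before 3 start sites are shown because the results turn on these genes: Hadha and Hadhb, which varied together, Cpt1a, which rose with the high-fat diet where most members did not, and Acadvl, which was lowest in CAST/EiJ and highest in WSB/EiJ. Hadha and Hadhb encode the alpha and beta subunits of the mitochondrial trifunctional protein and lie head to head, with 272 bases between their start sites, so that 228 bases of their annotated promoter windows are shared. The sequences are the 250 bases before the start in RefSeq, build GRCm38.p6, 5′ to 3′ on the strand of the gene, and so are those of the C57BL/6J reference and not of the other strains. Capitals mark AGGTCA, the core hexamer of many nuclear receptor elements including those of PPARα, and CCAAT, searched on both strands. Hadhb lies on the plus strand (chr5:30155003-30155252) and holds neither, Cpt1a on the plus strand (chr19:3323051-3323300) and Acadvl on the minus strand (chr11:70015429-70015678).
Hadhb, shared with Hadha: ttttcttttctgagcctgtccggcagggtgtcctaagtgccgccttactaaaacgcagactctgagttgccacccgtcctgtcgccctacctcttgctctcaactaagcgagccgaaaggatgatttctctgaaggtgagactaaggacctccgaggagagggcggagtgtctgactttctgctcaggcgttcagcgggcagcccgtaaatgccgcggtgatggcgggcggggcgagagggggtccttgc
Cpt1a: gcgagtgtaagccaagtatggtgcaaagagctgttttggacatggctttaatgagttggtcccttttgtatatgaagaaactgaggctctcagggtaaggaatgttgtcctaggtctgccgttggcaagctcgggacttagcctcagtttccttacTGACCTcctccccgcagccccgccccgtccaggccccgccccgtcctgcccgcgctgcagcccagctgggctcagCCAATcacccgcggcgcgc
Acadvl: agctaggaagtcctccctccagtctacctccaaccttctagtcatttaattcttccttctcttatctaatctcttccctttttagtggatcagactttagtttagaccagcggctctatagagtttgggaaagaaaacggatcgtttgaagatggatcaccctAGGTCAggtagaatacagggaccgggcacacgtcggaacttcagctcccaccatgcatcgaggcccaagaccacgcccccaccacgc

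AGGTCA began 94 bases before the Cpt1a start and 87 before that of Acadvl, and CCAAT 19 bases before the start of Cpt1a. Of the 31 members with a promoter entry, 5 (16.1%) held AGGTCA, against 15.8% of 27025 promoters of that length. CCAAT was found in 13 (41.9%), against 37.5%. The direct repeat of AGGTCA spaced by 1 base was in 0 of the 31 and in 0.0407% of all promoters. These shares describe letters in a window and say nothing about binding.

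Per kilobase of transcript the members covered a wide range, and the most abundant were not confined to 1 compartment. Over the 24 libraries the median level was highest for Scp2, which encodes the peroxisomal thiolase SCPx and a sterol carrier protein, at 404 CPM per kilobase. Hadhb followed at 308, then Ech1, a dienoyl-CoA isomerase, at 305, the peroxisomal thiolase Acaa1a at 192 and the mitochondrial enoyl-CoA hydratase Echs1 at 181 CPM per kilobase. At the low end stood Ppara at 2.65, Acot2 at 4.58, Cpt1b at 4.94, Acot1 at 5.45 and Decr2, a peroxisomal dienoyl-CoA reductase, at 6.02 CPM per kilobase. Acaa1a and Acaa1b are 96% identical over 1450 aligned bases and Acot1 and Acot2 94.3% over 1330, so the authors' counting may have split reads between these pairs, and their values are uncertain.

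**Figure D1:**
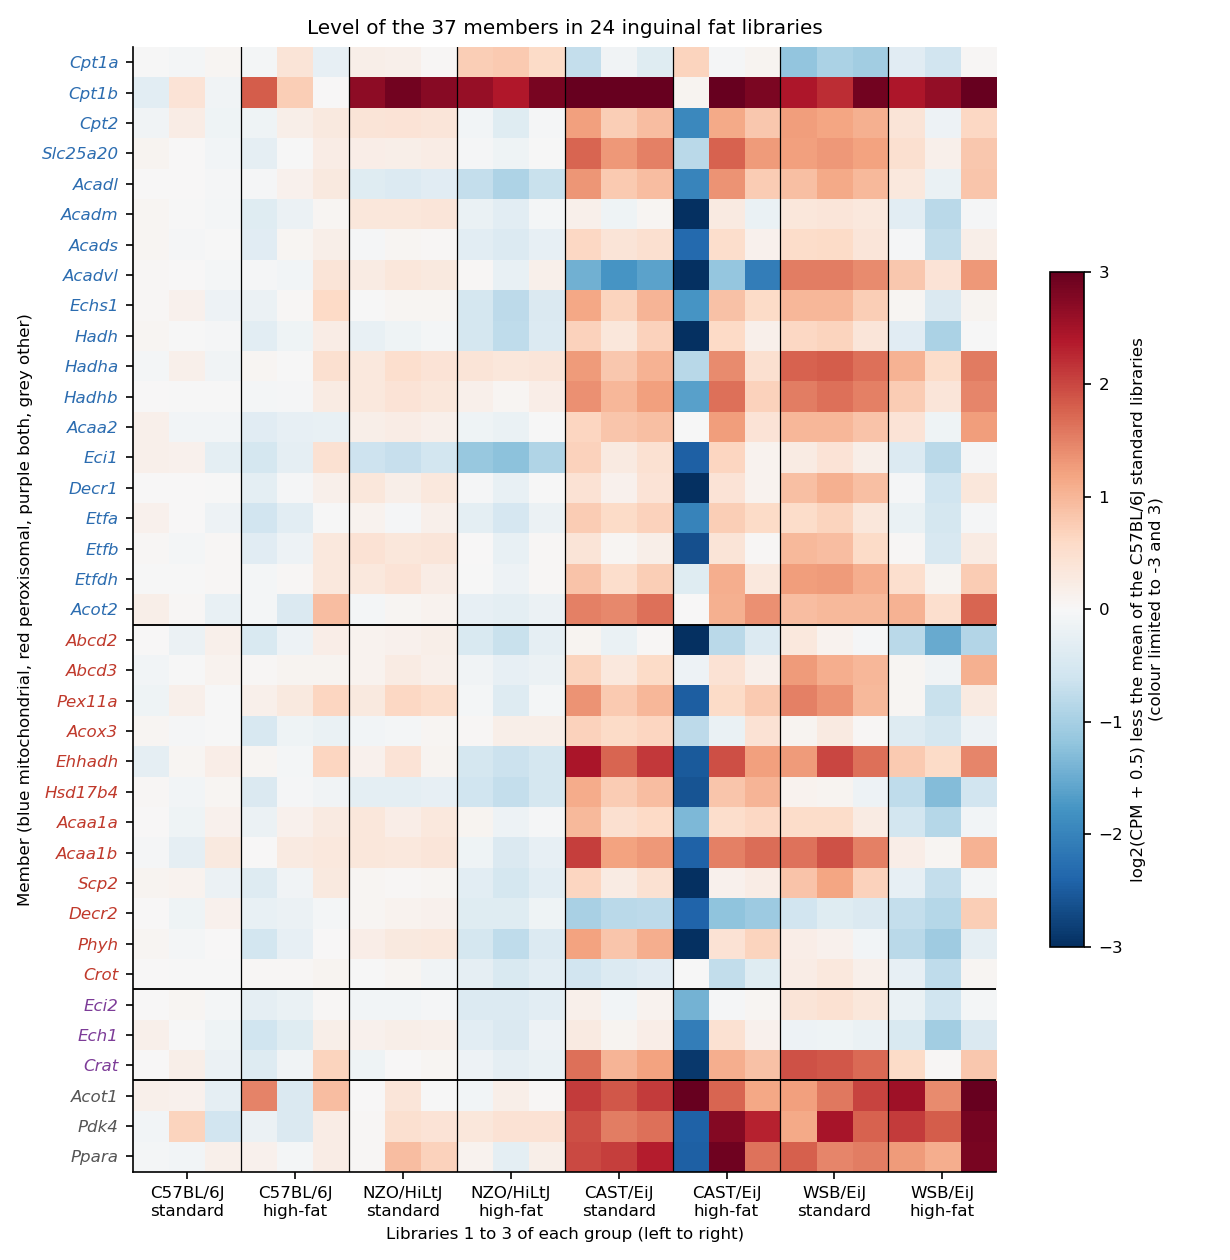
Level of each member (y axis, grouped by compartment) in each of the 24 libraries (x axis, 3 per group), as log2(CPM + 0.5) less the mean of the C57BL/6J standard-diet libraries, with colour limited to the range -3 to 3. CAST/EiJ and WSB/EiJ libraries are mostly above C57BL/6J on the standard diet, Acadvl is below it in CAST/EiJ, and library 1 of the CAST/EiJ high-fat group is low for most members.

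Strains were compared first on the standard diet, where no library had lost its adipocyte markers. The lowest mean was that of C57BL/6J in 24 of the 37 members, and the highest that of CAST/EiJ or of WSB/EiJ in 17 members each. Any difference among the 4 strains was called for 17 members, 10 of them mitochondrial and 5 peroxisomal, where 49.6% of all genes tested were called. Without the outlying library the count was 34 of 37, where 64.4% of all genes were called, and the 3 that did not pass were Acadm, Ech1 and Abcd2.

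Within the carnitine shuttle the differences were largest for 1 gene. Cpt1b, the muscle and brown fat form of carnitine palmitoyltransferase 1, had 1.43, 2.70 and 1.73 CPM in the C57BL/6J libraries but 14.9, 17.4 and 15.4 CPM in those of NZO/HiLtJ. It reached 27.2, 36.8 and 36.1 CPM in CAST/EiJ and 12.3, 10.7 and 17.2 CPM in WSB/EiJ. Every library of the other 3 strains was above every C57BL/6J library. NZO/HiLtJ exceeded C57BL/6J by 3.02 ± 0.78 (log2, SE; adjusted p = 0.0215). The excess was 4.09 ± 0.81 for CAST/EiJ (adjusted p = 0.000991), and for WSB/EiJ it came to 2.78 ± 0.77 (adjusted p = 0.0145). The Cpt1b exons overlap those of a readthrough transcript of the same strand, Gm44502, over 94.8% of their length, and that gene has no line in the table. The call in NZO/HiLtJ was lost when C57BL/6J standard 1, 2 or 3 or NZO/HiLtJ standard 2 was left out, which gave 0 members called for that pair.

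Cpt1a, the widely expressed liver form, went the other way. C57BL/6J libraries had 44.7, 43.1 and 47.04 CPM and NZO/HiLtJ libraries 50.5, 49.6 and 46.1 CPM, against 19.4, 22.9 and 21.6 CPM in WSB/EiJ. CAST/EiJ was between them at 27.1, 41.8 and 35.004 CPM, above WSB/EiJ and below C57BL/6J in all libraries. The difference of WSB/EiJ from C57BL/6J was -1.08 ± 0.20 (adjusted p = 0.000783), that of NZO/HiLtJ from WSB/EiJ 1.2 ± 0.20 (adjusted p = 0.000236) and that of CAST/EiJ from WSB/EiJ 0.70 ± 0.20 (adjusted p = 0.0131). CAST/EiJ against C57BL/6J did not pass in either fit. Slc25a20, the carnitine-acylcarnitine carrier of the inner membrane, lay at 20.4 to 22.7 CPM in C57BL/6J, 24.3 to 25.2 in NZO/HiLtJ, 53.9 to 73.9 in CAST/EiJ and 50.5 to 54.3 CPM in WSB/EiJ. The 4 strains fell into a low pair and a high pair with no overlap between the pairs. It was higher than in C57BL/6J by 1.55 ± 0.37 in CAST/EiJ (adjusted p = 0.00435) and 1.27 ± 0.37 in WSB/EiJ (adjusted p = 0.0192). Cpt2, the inner palmitoyltransferase, was higher by 0.99 ± 0.18 and 1.17 ± 0.18 in these strains in the 23-library fit only.

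Among the acyl-CoA dehydrogenases, which open each mitochondrial round, Acadvl for very long chains separated the 2 wild-derived strains. The C57BL/6J libraries had 237, 233 and 222 CPM, those of NZO/HiLtJ 272, 289 and 282 CPM. Values were 84.8, 67.2 and 74.98 CPM in CAST/EiJ and 672, 671 and 619.9 CPM in WSB/EiJ. No 2 strains overlapped. The log2 difference in Acadvl was -3.11 ± 0.47 for CAST/EiJ less WSB/EiJ (adjusted p = 6.33e-05), -1.61 ± 0.44 for CAST/EiJ less C57BL/6J (adjusted p = 0.0105) and 1.5 ± 0.44 for WSB/EiJ less C57BL/6J (adjusted p = 0.0190). Exons of Acadvl overlap those of Dvl2 on the other strand over 45.0% of their length, and whether the counting used strand is not given in the sources used here. Dvl2 itself lay at 18.1 to 20.6 CPM in CAST/EiJ, 18.3 to 20.2 CPM in C57BL/6J and 25.0 to 27.0 CPM in WSB/EiJ, and its part in the Acadvl values was not tested. Nor was that of the genome to which the reads of each strain were aligned, which is not given either.

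The other dehydrogenases did not follow Acadvl. Acadl for long chains lay at 94.2 to 98.9 CPM in NZO/HiLtJ, 123 to 128 CPM in C57BL/6J, 218 to 318 CPM in CAST/EiJ and 234 to 278 CPM in WSB/EiJ. NZO/HiLtJ fell short of CAST/EiJ (-1.42 ± 0.46, adjusted p = 0.0237) and WSB/EiJ (-1.39 ± 0.46, adjusted p = 0.0320). Acads for short chains was higher than in C57BL/6J by 0.52 ± 0.18 in CAST/EiJ and 0.51 ± 0.18 in WSB/EiJ in the 23-library fit. Acadm for medium chains did not pass in any pair of strains in that fit.

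For the later steps, both subunits of the trifunctional protein were higher in the wild-derived strains. Hadha lay at 219 to 259.9 CPM in C57BL/6J, 292 to 332 CPM in NZO/HiLtJ, 413 to 570.5 CPM in CAST/EiJ and 739 to 831 CPM in WSB/EiJ. Hadhb took the same order, at 491 to 497, 613 to 656, 981 to 1270.3 and 1418 to 1545 CPM, and for both genes no 2 strains overlapped. Hadha was higher than in C57BL/6J by 1.06 ± 0.35 in CAST/EiJ (adjusted p = 0.0311) and 1.75 ± 0.36 in WSB/EiJ (adjusted p = 0.00199), and Hadhb by 1.57 ± 0.46 in WSB/EiJ (adjusted p = 0.0197). Acaa2, the mitochondrial thiolase, passed against C57BL/6J in both strains (0.80 ± 0.28 and 0.96 ± 0.28). Echs1 and Hadh, a short-chain hydroxyacyl-CoA dehydrogenase, passed there in the 23-library fit only, by 0.57 to 0.97.

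Electron transfer showed the same direction. Etfdh, the oxidoreductase that hands electrons to ubiquinone, lay at 133 to 138 CPM in C57BL/6J, 159 to 179 in NZO/HiLtJ, 195 to 246 in CAST/EiJ and 291 to 327 CPM in WSB/EiJ. Its differences from C57BL/6J were 0.72 ± 0.24 in CAST/EiJ (adjusted p = 0.0330) and 1.21 ± 0.24 in WSB/EiJ (adjusted p = 0.00169). Etfa and Etfb encode the subunits of the flavoprotein. In the 23-library fit Etfa passed in both strains, and Etfb, whose exons overlap a predicted gene over 69.1%, passed in WSB/EiJ (0.85 ± 0.18). Of the auxiliary enzymes for unsaturated chains, Decr1 passed in WSB/EiJ (0.98 ± 0.17), and Eci1 was lower in NZO/HiLtJ than in both wild-derived strains in that fit (-1.13 ± 0.23 and -0.91 ± 0.23).

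Several peroxisomal members separated the wild-derived strains from each other or from the rest. Ehhadh, the bifunctional enzyme that PPARα ligands induce in liver, had 17.1, 21.8 and 23.8 CPM in the C57BL/6J libraries and 22.7, 27.7 and 21.9 CPM in those of NZO/HiLtJ. It had 116, 70.9 and 91.8 CPM in CAST/EiJ and 51.1, 85.0 and 65.95 CPM in WSB/EiJ. All wild-derived libraries were above all others. Ehhadh was higher in CAST/EiJ than in C57BL/6J by 2.15 ± 0.62 (adjusted p = 0.0140), and in WSB/EiJ by 1.70 ± 0.27 in the 23-library fit (adjusted p = 0.000124). Hsd17b4, the other bifunctional enzyme, used for branched chains and bile acid precursors, lay at 312 to 399 CPM in CAST/EiJ against 166 to 199.97 CPM in WSB/EiJ, 174 to 194 CPM in C57BL/6J and 150.5 to 155 CPM in NZO/HiLtJ. Phyh, which starts the alpha-oxidation of phytanic acid, lay at 167 to 216 CPM in CAST/EiJ, against 87.4 to 115 CPM in the other 3 strains. CAST/EiJ exceeded WSB/EiJ by 0.92 ± 0.15 for Hsd17b4 (adjusted p = 0.00013) and 0.98 ± 0.18 for Phyh (adjusted p = 0.000308) in that fit.

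Of the 3 membrane and division proteins, Abcd3 and Pex11a differed between strains. Abcd3, an ABC transporter of the peroxisomal membrane for branched chains and bile acid precursors, lay at 93.6 to 114 CPM in WSB/EiJ, 59.2 to 75.3 in CAST/EiJ, 50.5 to 55.7 in NZO/HiLtJ and 44.6 to 50.5 CPM in C57BL/6J. WSB/EiJ exceeded C57BL/6J by 1.13 ± 0.22 (adjusted p = 0.00126), and CAST/EiJ less WSB/EiJ was -0.60 ± 0.21 in the 23-library fit (adjusted p = 0.0361). Pex11a, which promotes peroxisome division, was higher than in C57BL/6J by 1.31 ± 0.21 in WSB/EiJ and 1.08 ± 0.21 in CAST/EiJ in that fit, and Scp2 by 0.93 ± 0.18 and 0.46 ± 0.18. Abcd2, the transporter best known in fat, passed in no pair of strains in either fit. Acox3, an oxidase of branched chains, lay at 142 to 155 CPM in CAST/EiJ against 90.4 to 115 CPM in the other strains and was higher than in C57BL/6J by 0.64 ± 0.19 (adjusted p = 0.0193). The thiolase Acaa1b lay at 36.8 to 57.2 CPM in C57BL/6J and NZO/HiLtJ together, 103 to 188 CPM in CAST/EiJ and 128 to 167 CPM in WSB/EiJ, higher than in C57BL/6J by 1.57 ± 0.58 (adjusted p = 0.0493) and 1.69 ± 0.58 (adjusted p = 0.0440). Acaa1a, its near copy, passed in both in the 23-library fit (0.71 ± 0.17 and 0.47 ± 0.17).

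A few members were lower in CAST/EiJ. Crot, the carnitine octanoyltransferase that exports shortened chains, lay at 28.6 to 33.3 CPM in CAST/EiJ and 47.2 to 53.3 CPM in WSB/EiJ, a difference of -0.68 ± 0.17 (adjusted p = 0.00571). Decr2 lay at 8.61 to 9.97 CPM in CAST/EiJ against 15.8 to 19.2 CPM in C57BL/6J and 18.1 to 19.2 CPM in NZO/HiLtJ. NZO/HiLtJ exceeded CAST/EiJ by 0.99 ± 0.35 (adjusted p = 0.0333), and CAST/EiJ less C57BL/6J was -0.87 ± 0.28 in the 23-library fit (adjusted p = 0.0211).

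Of the members found in both compartments, Crat stood out. It encodes carnitine acetyltransferase, which buffers acetyl-CoA, and lay at 318 to 403 CPM in C57BL/6J, 329.8 to 372 CPM in NZO/HiLtJ, 736 to 1139 CPM in CAST/EiJ and 1165 to 1345 CPM in WSB/EiJ. The wild-derived strains lay above the others without overlap. WSB/EiJ less C57BL/6J was 1.82 ± 0.56 (adjusted p = 0.0256), and NZO/HiLtJ less WSB/EiJ was -1.84 ± 0.56 (adjusted p = 0.0199). Eci2, an enoyl-CoA isomerase, passed in the 23-library fit only for the 3 pairs that include WSB/EiJ, the highest strain (0.41 ± 0.11 over C57BL/6J), and Ech1 passed in no pair.

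The thioesterases release free acids from acyl-CoA. Acot2, the mitochondrial one, lay at 6.61 to 8.92 CPM in C57BL/6J, 7.4 to 8.35 in NZO/HiLtJ, 22.2 to 25.7 in CAST/EiJ and 15.2 to 15.9 CPM in WSB/EiJ, and the cytosolic Acot1 at 4.11 to 5.73, 5.03 to 6.69, 19.8 to 23.6 and 12.7 to 22.3 CPM. For both the wild-derived strains lay above the others without overlap. Acot2 was higher than in C57BL/6J by 1.59 ± 0.35 in CAST/EiJ (adjusted p = 0.00237) and 0.99 ± 0.35 in WSB/EiJ (adjusted p = 0.0483), and Acot1 by 2.11 ± 0.50 and 1.73 ± 0.50 (adjusted p = 0.00409 and 0.0179). The regulators also stood higher in the wild-derived strains. Ppara lay at 4.61 to 5.53 CPM in C57BL/6J, 5.10 to 9.86 in NZO/HiLtJ, 21.1 to 27.3 in CAST/EiJ and 14.4 to 18.4 CPM in WSB/EiJ. Pdk4, the kinase that shuts pyruvate dehydrogenase and so spares glucose, lay at 23.004 to 55.5, 35.5 to 48.8, 102 to 134 and 76.4 to 194 CPM in the same order. In both genes every wild-derived library was above every library of the other strains. Ppara was higher in CAST/EiJ than in C57BL/6J by 2.25 ± 0.79 (adjusted p = 0.0404), and in the 23-library fit in WSB/EiJ by 1.70 ± 0.40 (adjusted p = 0.00297). Pdk4 passed there in both, by 1.66 ± 0.34 and 1.82 ± 0.35.

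**Figure D2:**
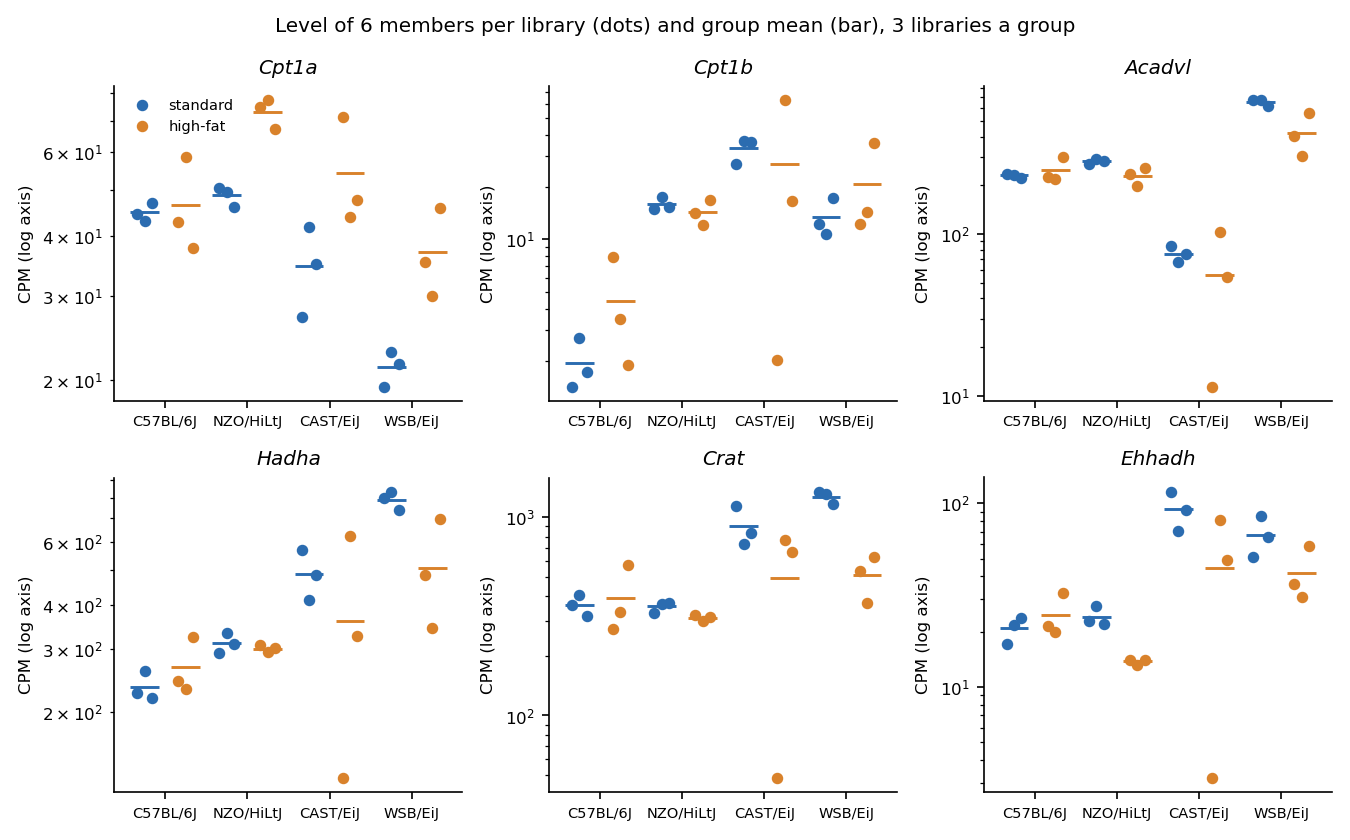
CPM (y axis, log scale) of 6 members in each library (dots), with group means (bars), by strain (x axis) and diet (blue standard, orange high-fat), 3 libraries a group. Cpt1b is lowest in C57BL/6J, Acadvl is lowest in CAST/EiJ and highest in WSB/EiJ, and library 1 of the CAST/EiJ high-fat group lies low except for Cpt1a.

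Counted by pair, fewer members were called in NZO/HiLtJ than in the wild-derived strains against C57BL/6J. Against C57BL/6J, 1 member (Cpt1b) was higher in NZO/HiLtJ and 0 lower, where 4.28% of all genes were called higher and 4.08% lower. In CAST/EiJ 11 were higher and 1 lower (background 12.6% and 15.3%), and in WSB/EiJ 12 were higher and 1 lower (10.1% and 11.9%). The 23-library fit called 26 higher and 3 lower in CAST/EiJ (19.5% and 20.1%), 27 higher and 1 lower in WSB/EiJ (16.5% and 17.3%), and again only Cpt1b in NZO/HiLtJ (8.38% and 7.83%), where leaving out the 6 Epcam-rich libraries gave 7 members (27% of all genes). By compartment, 13 of 19 mitochondrial and 9 of 12 peroxisomal members were higher in CAST/EiJ, against 16 of 19 and 6 of 12 in WSB/EiJ. The median log2 difference was 0.73 for mitochondrial and 0.68 for peroxisomal members in CAST/EiJ, and 0.98 and 0.36 in WSB/EiJ, beside -0.02 and -0.03 over all genes. These comparisons share the C57BL/6J libraries. The share of higher calls in both strains exceeded the background, and the share of lower calls lay below it.

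NZO/HiLtJ against CAST/EiJ gave 2 members higher and 6 lower with all libraries, where 18.9% and 16.3% of genes were called. Without the outlying library this was 4 and 22 (23.6% and 23%), the 4 being Acadvl, Decr2, Crot and Cpt1a. Against WSB/EiJ, NZO/HiLtJ had 1 member higher, Cpt1a, and 10 lower (15.7% and 12.4%), and 1 and 26 in the smaller fit (21% and 19.3%). Between CAST/EiJ and WSB/EiJ 1 was higher in CAST/EiJ and 2 lower (11.8% and 11.6%), and 5 and 9 in the smaller fit (17.2% and 16.7%). The 5 were Cpt1a, Cpt1b, Hsd17b4, Phyh and Acox3, the first pair mitochondrial and the others peroxisomal. The 9 were Acadvl, Crot, Decr1, Etfb, Hadha, Eci2, Etfdh, Abcd3 and Scp2.

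**Figure D3:**
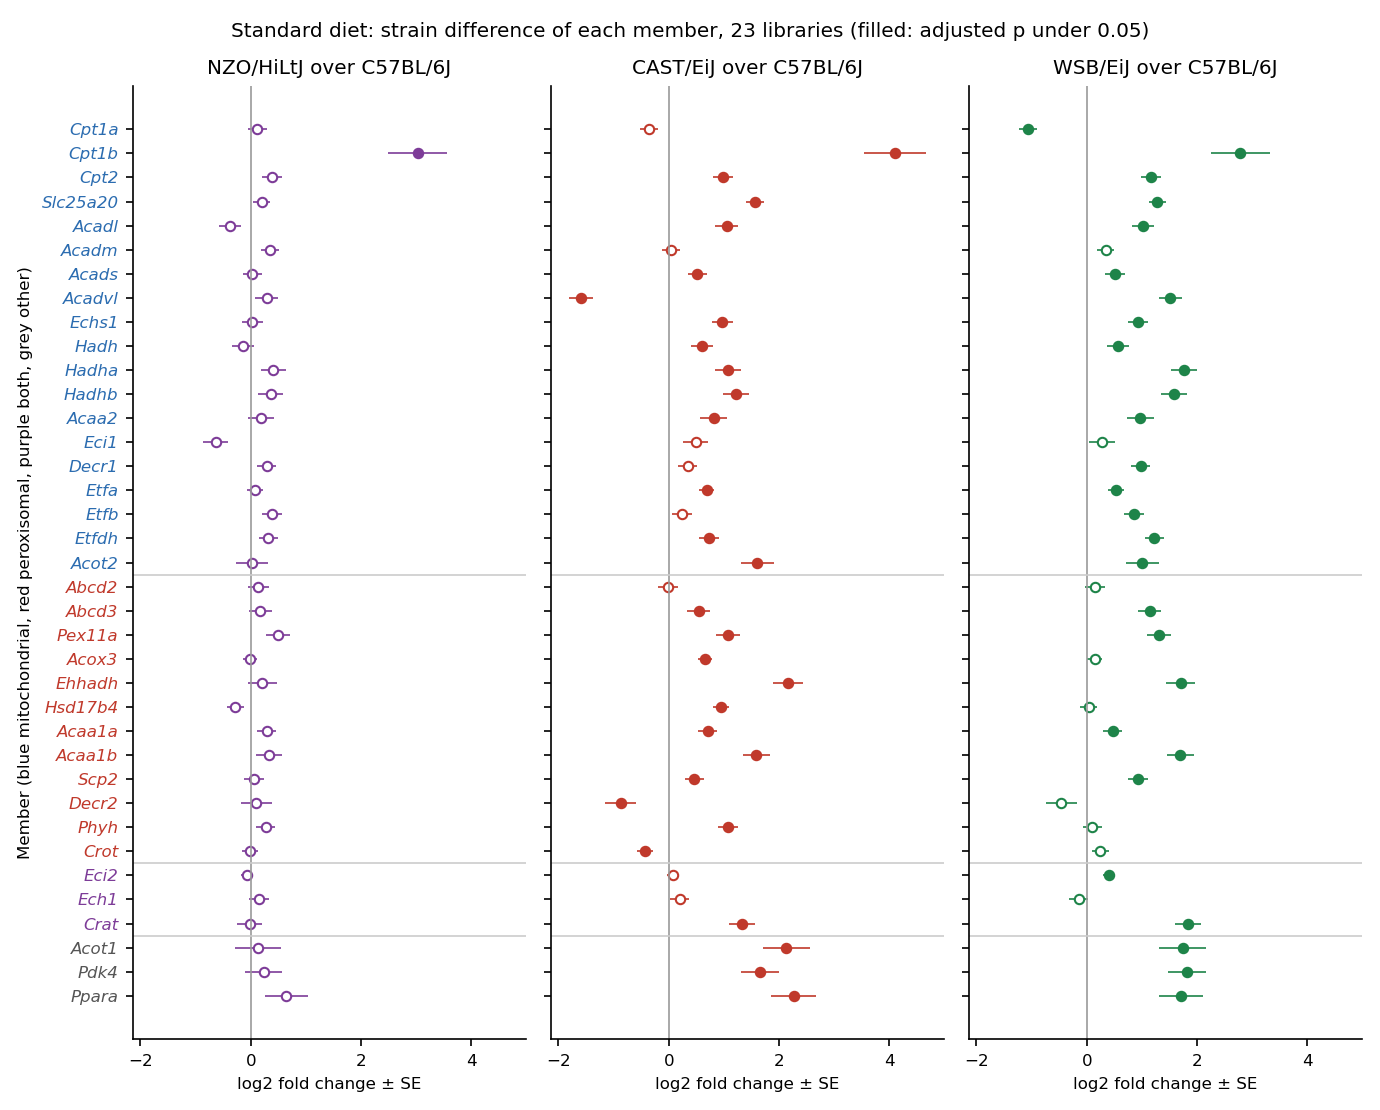
Log2 difference of each member (y axis) from C57BL/6J on the standard diet (x axis, ± SE) in NZO/HiLtJ, CAST/EiJ and WSB/EiJ, in the 23-library fit, with filled points at adjusted p under 0.05. Most points lie right of 0 in CAST/EiJ and WSB/EiJ, with Acadvl at -1.59 and 1.52 and Cpt1a at -1.07 in WSB/EiJ.

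Markers of brown and beige fat moved with the strain differences. The summed level of 7 such markers (Ucp1, Cidea, Cox7a1, Elovl3, Cox8b, Dio2 and Otop1) on the standard diet was 7.93 to 14.4 CPM in C57BL/6J, 45.5 to 64.2 in NZO/HiLtJ, 196 to 225 in CAST/EiJ and 141 to 168 CPM in WSB/EiJ. Ucp1, the uncoupling protein that defines them, lay at 0.167 to 2.48 CPM in C57BL/6J and 70.6 to 95.6 CPM in CAST/EiJ. With the level of this list as a covariate, a fit chosen after the data were seen, 3 members were called in CAST/EiJ against C57BL/6J and 0 in WSB/EiJ with edgeR (14.4% and 13% of all genes), against 12 and 13 without it. In WSB/EiJ 7 had an unadjusted p below 0.05, a count with no share of all genes beside it. For any strain difference 9 were called (44.2% of all genes), against 17. On the standard diet, no C57BL/6J library reached the summed marker level of any CAST/EiJ or WSB/EiJ library. Strain and marker level cannot be told apart there. The covariate itself was the mean log2 level of the 7 genes in all 24 libraries. This fit was not repeated without the outlying CAST/EiJ library, whose part in the lost calls was not tested. In the outlying CAST/EiJ library Ucp1 was low, at 0.0782 CPM beside 11.1 CPM in C57BL/6J high-fat 1. Dio2 went the other way there, at 144 CPM by scaled library size, and the summed level of the list was 171 CPM. Adipocyte markers on the standard diet summed to 27001 to 30341 CPM in CAST/EiJ, 21629 to 26111 in WSB/EiJ, 17310 to 21031 in C57BL/6J and 20382 to 20547 CPM in NZO/HiLtJ. With that level as a covariate and the outlying library left out, 27 members were called in CAST/EiJ and 30 in WSB/EiJ against C57BL/6J (39.9% and 33.5% of all genes). Skeletal muscle markers summed to 41.0, 5097 and 7.69 CPM in the CAST/EiJ standard-diet libraries 1 to 3, where Cpt1b was at 27.2, 36.8 and 36.1 CPM. Without library 2, Cpt1b in CAST/EiJ exceeded C57BL/6J by 4.01 (adjusted p = 0.00279), against 4.09 with it.

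The high-fat diet was then compared with the standard diet in each strain. In C57BL/6J no member passed with edgeR in either fit. With all libraries 0 of the 37 had an unadjusted p below 0.05, and DESeq2 called 0. Of all genes, 0.00998% were called higher and 0% lower with all libraries, and 0.0932% and 0.00981% without the outlying one. The log2 changes ran from -0.29 to 1.19 with a median of 0.05, and 19 were positive and 18 negative. The highest was that of Cpt1b, at 7.92, 3.49 and 1.91 CPM on the high-fat diet, of which the last lay within the standard-diet values. Every high-fat library was above every standard one for 2 members, Pex11a and Crot, and below for 2, Acaa2 and Acox3, named after their values were seen, where 5.27% and 5.55% of all genes did so.

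In NZO/HiLtJ most members were lower on the high-fat diet in every library, by amounts that passed the test for few or many of them according to which libraries of the other strains entered the shared estimate of the spread. With all libraries 0 members passed with edgeR (2.95% of genes were called higher and 1.94% lower), 1 had an unadjusted p below 0.05, and DESeq2 called 1. In the 23-library fit Cpt1a rose and Phyh, Acadm, Echs1 and Abcd2 fell (background 6.16% and 5.49%). With the 6 Epcam-rich libraries left out, none of which is NZO/HiLtJ, Cpt1a rose and 20 members fell, where 10.8% of all genes rose and 10.1% fell. These 20 comprised 8 of 19 mitochondrial and 10 of 12 peroxisomal members, with Eci2 and Ech1. Every high-fat library was below every standard one for 30 of the 37 members, where 23.8% of all genes did so, and above for Cpt1a only, where 22.7% did so.

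Cpt1a in NZO/HiLtJ went from 50.5, 49.6 and 46.1 CPM under standard feeding to 74.7, 77.2 and 67.3 CPM under high-fat feeding, a change of 0.59 ± 0.17 (adjusted p = 0.0306, 23 libraries). Phyh went from 107, 114 and 115 CPM to 64.8, 54.5 and 69.7 CPM (-0.83 ± 0.17, adjusted p = 0.00515). Acadm went from 267, 269.8 and 274 to 184, 171 and 204 CPM, Echs1 from 267, 280.4 and 280.0 to 186, 157 and 200.1 CPM, and Abcd2 from 406, 413 and 419.6 to 272, 234 and 311 CPM. The libraries of the diets did not overlap for any of these 5 genes. Hadha, at 292 to 332 CPM and then 294 to 308 CPM, was among the members that did overlap and passed in none of these fits. The others without separation were Cpt1b, at 14.9 to 17.4 and then 12.1 to 16.8 CPM, Acox3, Acot1, Pdk4, at 35.5 to 48.8 and then 43.9 to 47.4 CPM, and Ppara, at 5.10 to 9.86 and then 3.96 to 5.62 CPM.

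Markers of adipocytes and of other cells differed between the diets in NZO/HiLtJ too. Adipocyte markers summed to 20382 to 20547 CPM under standard and 12496 to 15420 CPM under high-fat feeding, and 6 macrophage markers to 642 to 998 CPM and then 2220 to 2980 CPM. Liver markers were at 169 to 1579 CPM and then at 13.7 to 44.9 CPM, with Alb between 76.8 and 873 CPM and then between 4.44 and 20.5 CPM. With the adipocyte level as a covariate and the outlying library left out, 0 members passed with edgeR in NZO/HiLtJ (2.71% of all genes did), 3 had an unadjusted p below 0.05, and their median change was -0.13, against -0.35 without the covariate. The liver markers' part in the change was not tested.

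In CAST/EiJ the counts changed with 1 library. With all libraries Acox3 fell (-0.73 ± 0.19, adjusted p = 0.0441), 0 rose, and 33 of 37 members were negative with a median of -0.49, where 3.27% of all genes rose and 1.6% fell. Without library 1 of the high-fat group 0 members passed with edgeR, where 0.201% and 0.103% of genes did, 4 had an unadjusted p below 0.05, and the median was -0.05. Acox3 went from 155, 142 and 149 CPM to 55.3, 83.5 and 129 CPM, so that the groups did not overlap. The outlying library held most members at a small part of the level of the other libraries, with Abcd2 at 2.05 CPM beside 213 and 283 CPM, and Ppara at 0.498 CPM beside 40.3 and 16.4 CPM. Its Cpt1a, at 71.2 CPM, its Acot1, at 47.6 CPM, and its Crot, at 42.2 CPM, were instead the highest of the strain. With all 3 high-fat libraries, they did not overlap the standard ones for 1 member above, Cpt1a, and for 6 below, of which 5 were peroxisomal (Abcd2, Acox3, Scp2, Decr2 and Phyh) and 1 was Acot2, where 10.4% and 9.6% of all genes did so. Without library 1 there were 2 above, Cpt1a and Pdk4, and 7 below, which added Acot1, where 15.7% and 14.9% of all genes did so. DESeq2 called 2 with all libraries.

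The most members were called in WSB/EiJ, the strain that also had the most calls over all genes. With all libraries Cpt1a rose (0.80 ± 0.20, adjusted p = 0.0116) and Abcd3, Crot and Etfdh fell, where 12.9% of genes rose and 8.61% fell. Without the outlying CAST/EiJ library, Cpt1a rose and 29 members fell, where 21.8% and 17.9% of genes did so. The 29 were 15 of 19 mitochondrial members, 11 of 12 peroxisomal ones and all 3 found in both compartments. The median change was -0.67 for mitochondrial and -0.82 for peroxisomal members, beside 0.08 over all genes. The members that did not pass were Cpt1b, Acaa2, Acot2, Decr2, Acot1, Pdk4 and Ppara. High-fat libraries lay below every standard library for 27 members, where 21.6% of genes did so, and above for Cpt1a, where 18.4% did so.

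Cpt1a in WSB/EiJ went from 19.4, 22.9 and 21.6 CPM to 35.4, 30.03 and 45.9 CPM. Slc25a20, which takes the products of that enzyme inward, went the other way, from 51.4, 54.3 and 50.5 CPM to 30.2, 24.2 and 38.2 CPM (-0.76 ± 0.16, adjusted p = 0.0018, 23 libraries). Among peroxisomal members, Pex11a, Scp2, Acaa1b and Abcd2 fell by more than 1 on the log2 scale. Pex11a went from 97.9, 88.6 and 67.4 CPM to 35.9, 21.4 and 41.1 CPM (-1.37 ± 0.22, adjusted p = 0.000271), Scp2 from 1857, 2302 and 1652 CPM to 865, 624 and 976 CPM (-1.24 ± 0.18, adjusted p = 0.000169), and Abcd2 from 467, 405 and 367 CPM to 212, 130.2 and 202 CPM (-1.19 ± 0.19, adjusted p = 0.000278). For these 3 the diets did not overlap, and Acaa1b changed by -1.19 ± 0.24.

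Crat fell as far, from 1345, 1307 and 1165 CPM to 534, 370.1 and 633 CPM (-1.31 ± 0.23, adjusted p = 0.000578). Eci2 changed less, from 301, 319.7 and 292 CPM to 203, 152 and 224 CPM (-0.66 ± 0.11, adjusted p = 0.000458). Among mitochondrial enzymes Decr1 (-1.01 ± 0.17), Echs1 (-1.0 ± 0.19) and Hadh (-0.95 ± 0.20) fell furthest. Hadha went from 800.0, 831 and 739 CPM to 486, 345 and 695 CPM and Hadhb from 1422, 1545 and 1418 CPM to 842, 633 and 1367 CPM. Their changes were -0.63 ± 0.23 and -0.62 ± 0.23 (adjusted p = 0.0353 and 0.0385), and library 3 of the high-fat group was the highest of its group for both.

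The 3 members outside both compartments did not follow. Ppara lay at 18.4, 14.4 and 15.3 CPM and then at 12.7, 11.1 and 38.4 CPM, and Pdk4 at 76.4, 194 and 119.5 CPM and then at 149, 124 and 257 CPM. The single highest value of each came from library 3 of the high-fat group, which also had the highest Cpt1b of the strain (35.6 CPM) and a Ucp1 of 131 CPM beside 24.6 and 49.7 CPM in its group. Neither gene passed in any strain for the diet.

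Markers of other tissues were high in the WSB/EiJ high-fat libraries. Epithelial markers summed to 108 to 587 CPM there, against 4.10 to 19.2 CPM on the standard diet, and smooth muscle markers to 1026 to 4849 CPM against 121 to 722 CPM. Brain markers reached 2345 CPM in 1 of the 3. Adipocyte markers lay at 10218 to 14788 CPM against 21629 to 26111 CPM, with no overlap, and Adipoq at 937 to 1340 CPM against 1763 to 2347 CPM. With the adipocyte level as a covariate and without the outlying CAST/EiJ library, 0 members passed with edgeR for the diet in WSB/EiJ (3.62% of all genes did). Of the 37, 18 had an unadjusted p below 0.05, a count with no share of all genes beside it that does not show an excess. The median change was -0.56, with 31 of 37 negative. The same covariate on all 24 libraries gave more calls, as counted under the processing settings below. The part of the other tissues was not tested. Leaving out any 1 of WSB/EiJ standard 1, 2 or 3 or high-fat 1 or 2 from the full fit gave 0 to 2 members called, against 4.

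**Figure D4:**
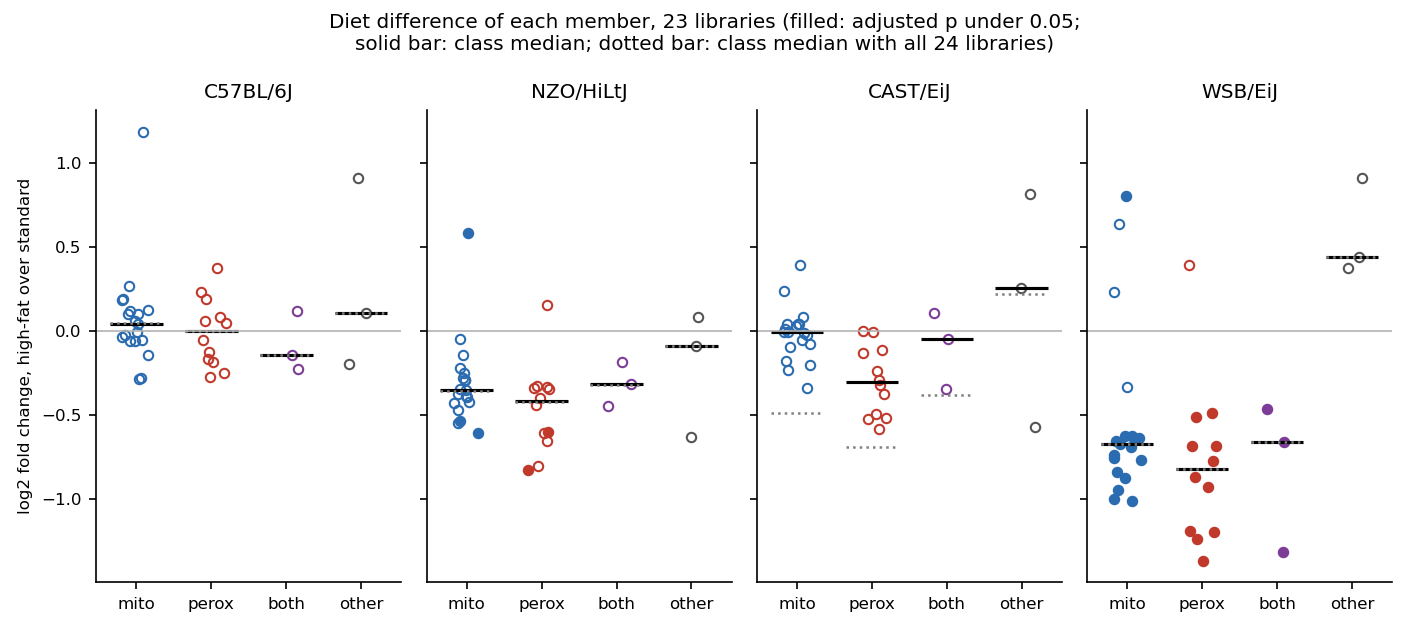
Log2 change from standard to high-fat diet (y axis) of each member by compartment (x axis) in the 4 strains, in the 23-library fit. Filled points have an adjusted p under 0.05, solid bars are class medians and dotted bars the medians with all 24 libraries. In WSB/EiJ 11 of 12 peroxisomal and 15 of 19 mitochondrial members fell, and in CAST/EiJ the medians shift up once library 1 is left out.

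Averaged over the 4 strains, Cpt1a rose (0.52 ± 0.10, adjusted p = 0.00266) and Acox3, Eci2, Abcd3 and Phyh fell with all libraries, where 17.1% of genes rose and 11.8% fell. In the 23-library fit Cpt1a rose and 23 fell (13.9% and 15%), of which 9 of 19 were mitochondrial and 11 of 12 peroxisomal. Phyh (-0.59 ± 0.09, adjusted p = 0.000366), Abcd2 (-0.62 ± 0.10, adjusted p = 0.000401), Scp2 (-0.50 ± 0.09) and Eci2 (-0.29 ± 0.06) had the smallest adjusted p. The 1 peroxisomal member that did not pass was Decr2. With the adipocyte level as a covariate, 0 passed with edgeR (0.0687% of all genes did) and 2 had an unadjusted p below 0.05.

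Whether the diet effect differed between strains was tested with the interaction of strain and diet. With all libraries 0 members passed with edgeR, where 3.08% of all genes did, and DESeq2 called 0. An unadjusted p below 0.05 was found for 2 members and for 4528 of 20035 genes. Without the outlying library 11 members passed, where 17.6% of genes did: Cpt2, Echs1, Decr1, Abcd2, Pex11a, Hsd17b4, Acaa1a, Acaa1b, Scp2, Eci2 and Crat. Pex11a had the smallest adjusted p (0.00739), with changes of -1.37 in WSB/EiJ, which passed, and -0.65 in NZO/HiLtJ, -0.38 in CAST/EiJ and 0.37 in C57BL/6J, which did not. Without the 6 libraries, which leaves 3 strains, 2 passed, Pex11a and Phyh (6.92% of all genes did). With the adipocyte level as a covariate and the outlying library left out, 5 passed (12.4%). Cpt1a, the member that rose in 2 strains, did not pass the interaction in either fit.

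On the high-fat diet the strain order was not that of the standard diet. The lowest mean was that of NZO/HiLtJ in 20 of the 37 members and that of C57BL/6J in 5, and 21 and 5 without library 1 of CAST/EiJ. The highest was that of CAST/EiJ in 13 members and in 29 without that library, and that of C57BL/6J in 10 and then 2. Any difference between strains was called for 10 members, where 56% of all genes were called, among them Acadvl, Acot1, Cpt1a, Acot2 and Decr2. In the 23-library fit it was called for 32, against 71.6% of all genes. Acadvl was again highest in WSB/EiJ and lowest in CAST/EiJ, with 404, 304 and 564 CPM in WSB/EiJ and 11.4, 102 and 54.6 CPM in CAST/EiJ. The C57BL/6J libraries had 226, 218 and 299.9 CPM, and those of NZO/HiLtJ 235, 198 and 256 CPM. Ehhadh, at 14.1, 13.2 and 14.1 CPM in NZO/HiLtJ, lay below all libraries of the other strains except for library 1 of CAST/EiJ at 3.19 CPM.

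The compartments were compared within each library as the mean log2 CPM of the 12 peroxisomal less that of the 19 mitochondrial members. Transcript length cancels in a change of this value but not in the value itself, and no test was made. On the standard diet it was 0.01 ± 0.13 (SD, n = 3) in C57BL/6J, -0.12 ± 0.02 in NZO/HiLtJ, -0.12 ± 0.06 in CAST/EiJ and -0.33 ± 0.07 in WSB/EiJ. WSB/EiJ, at -0.40 to -0.27, lay below every library of the other strains, the lowest of which was -0.17. With the median of each class in place of the mean, WSB/EiJ (-1.29 to -1.08) overlapped NZO/HiLtJ (-1.09 to -0.99), and CAST/EiJ lay at -0.69 to -0.42. On the high-fat diet it was -0.04 in C57BL/6J, -0.27 ± 0.02 in NZO/HiLtJ and -0.59 ± 0.04 in WSB/EiJ. The libraries of the diets did not overlap in NZO/HiLtJ (-0.14 to -0.10, then -0.29 to -0.26) or in WSB/EiJ (then -0.64 to -0.56), and overlapped in C57BL/6J. By class medians they overlapped in NZO/HiLtJ and WSB/EiJ, but not in C57BL/6J (-1.0673 to -0.7794, then -1.1783 to -1.0686).

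CAST/EiJ gave no single value on the high-fat diet, with -0.70 and -0.68 in 2 libraries and -0.03 in library 3. The change with diet was -0.06 in C57BL/6J, -0.15 in NZO/HiLtJ, -0.25 in CAST/EiJ without its library 1 (-0.35 with it) and -0.26 in WSB/EiJ. The change depended on how the members were averaged. With the median of each class in place of the mean, the change was -0.18, -0.06, -0.05 and 0.08 in the same order with all libraries, so that in WSB/EiJ its sign turned, and -0.0557 in CAST/EiJ without library 1. Mitochondrial and peroxisomal levels otherwise moved together between libraries. The mean log2 CPM of mitochondrial members was 6.44 in C57BL/6J, 6.72 in NZO/HiLtJ, 7.22 in CAST/EiJ and 7.39 in WSB/EiJ on the standard diet, and that of peroxisomal members 6.45, 6.60, 7.09 and 7.06. On the high-fat diet these were 6.49, 6.41, 6.36 and 6.81 for mitochondrial and 6.44, 6.14, 5.89 and 6.22 for peroxisomal members, with the outlying library at 4.73 and 4.05 in the CAST/EiJ means.

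**Figure D5:**
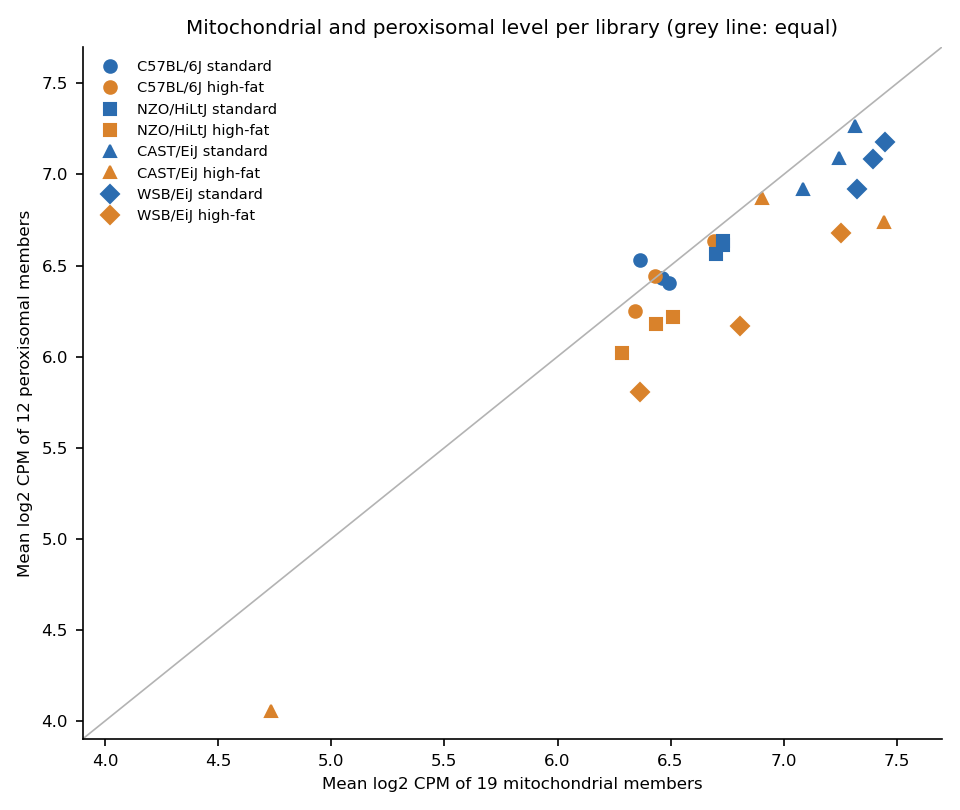
Mean log2 CPM of the 12 peroxisomal members (y axis) against that of the 19 mitochondrial members (x axis), 1 point per library, shape by strain and colour by diet, with a grey line where both are equal. WSB/EiJ libraries lie furthest below the line on both diets, apart from CAST/EiJ high-fat libraries 1 and 2, and C57BL/6J libraries lie on or near it.

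Neighbouring pathways were counted from 5 lists, with values from the 23-library fit, in which 21.8% of all genes rose and 17.9% fell for the diet in WSB/EiJ. For the diet in WSB/EiJ, 14 of 15 peroxins, the assembly proteins of the peroxisome, fell and 0 rose, among them Pex3 (-1.21 ± 0.15) and Pex16 (-1.59 ± 0.21), which insert membrane proteins. All 10 markers of mitochondrial content fell, such as the citrate synthase gene Cs (-1.02 ± 0.18) and the respiratory subunit Cox4i1 (-0.80 ± 0.14). Of 14 further mitochondrial oxidation genes 8 fell and 2 rose, with Acad11 (-1.20 ± 0.19), a dehydrogenase, falling and Pdk3 (1.61 ± 0.24), a relative of Pdk4, rising. Of 19 further peroxisomal lipid enzymes 9 fell and 1 rose, with the membrane channel Pxmp2 (-2.14 ± 0.28) falling and Far1 (1.2 ± 0.15), which makes fatty alcohols for ether lipids, rising. The PPAR list had 6 falls, such as Ucp3 (-1.56 ± 0.22) and Lpin1 (-1.28 ± 0.24), and 3 rises of 18. Mitochondrial and peroxisomal genes outside fatty acid oxidation fell with the members. With all 24 libraries these 5 lists had 8, 3, 3, 3 and 0 falls, where 8.61% of all genes fell.

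In NZO/HiLtJ 2 of 15 peroxins, 2 of 10 content markers, 2 of 14 mitochondrial, 6 of 19 peroxisomal and 3 of 18 PPAR genes fell with the diet, where 5.49% of all genes fell. With all 24 libraries the falls were 0, 0, 0, 4 and 2, where 1.94% of all genes fell. Slc27a2 (-5.03 ± 0.82), an acyl-CoA synthetase of liver and kidney, and Cyp4a14 (-5.31 ± 1.19), a fatty acid hydroxylase of the same organs, had large falls, beside the liver markers given above. Ucp2 rose there (1.13 ± 0.21), as did 2 of the peroxisomal genes. None of the 5 lists had a call in C57BL/6J or CAST/EiJ in that fit with edgeR. With all 24 libraries C57BL/6J again had 0, and CAST/EiJ had 2 of 14 mitochondrial genes, 4 of 19 peroxisomal ones and 1 of 18 of the PPAR list called, where 3.27% of all genes rose and 1.6% fell.

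Against C57BL/6J on the standard diet, 9 of 15 peroxins were higher in CAST/EiJ and 11 in WSB/EiJ, where 19.5% and 16.5% of all genes were higher, with Pex3 at 1.23 ± 0.15 and 1.31 ± 0.15. Mitochondrial content markers were higher for 9 and lower for 1 of 10 in CAST/EiJ, and higher for all 10 in WSB/EiJ, with Ndufs1 of complex I at 1.02 ± 0.18 and 1.39 ± 0.18. The coactivator Ppargc1a, which drives mitochondrial biogenesis, was higher by 1.66 ± 0.29 and 3.03 ± 0.31, and its partner Esrra by 1.21 ± 0.16 and 1.15 ± 0.16. Acacb, which makes the malonyl-CoA that inhibits carnitine palmitoyltransferase 1, was higher by 4.01 ± 0.55 and 4.46 ± 0.56. The thioesterases Acot4 (3.54 ± 0.45) and Acot3 (5.47 ± 0.78), close relatives of Acot1 and Acot2, were among 13 of 19 peroxisomal genes higher in CAST/EiJ, against 7 in WSB/EiJ. With all 24 libraries 6 peroxins, 2 content markers and 6 of these peroxisomal genes were higher in CAST/EiJ, where 12.6% of all genes were, and 7, 7 and 4 in WSB/EiJ, where 10.1% were. Without the outlying library NZO/HiLtJ had 0 mitochondrial content markers called. Its Esrra (0.64 ± 0.16) and Ppargc1b (1.25 ± 0.32), of the PPAR list, were higher. Of 14 further mitochondrial oxidation genes 4 were lower and 0 higher in NZO/HiLtJ, where 8.38% of all genes were higher and 7.83% lower. Of these 14, 7 were higher and 2 lower in CAST/EiJ, and 8 and 2 in WSB/EiJ. Of 18 PPAR genes 11 were higher and 1 lower in CAST/EiJ, and 6 and 3 in WSB/EiJ. Of all genes 20.1% and 17.3% were lower in these strains.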

How the data were processed

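RNA of the inguinal fat of 24 mice was sequenced as poly(A)-selected TruSeq libraries, per the labels' protocols. The submitters' processing notes name CASAVA 1.8.0, Bowtie 0.12.8 and RSEM 1.2.1 and the builds NCBIM37 and mm9. Whether reads were aligned to each strain's own genome, and whether counting used strand, is not given in the sources used here. What the alignment did to strain differences of single genes, among them those lower in CAST/EiJ, was not tested. The deposited table of expected counts per Ensembl gene holds whole numbers and was used for every test. A second deposited table holds a signal in which the authors scaled counts by upper quartile, and it was not used for tests. Symbols came from GENCODE M21 (32919 of 37991 identifiers matched).

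Of all genes, 20035 passed edgeR's filterByExpr and 17956 did not. A model with 1 coefficient for each of 8 groups was fitted with edgeR 4.0.16 (limma 3.58.1, R 4.3.3, trimmed-mean scaling, quasi-likelihood test, 16 residual degrees of freedom, Benjamini-Hochberg over all genes, called at 0.05). The biological coefficient of variation was 40.06%. The fit without the library CAST/EiJ high-fat 1 tested 20385 genes, and that without 6 libraries tested 19748. Totals of 47651641 to 84009032 counts make counting error small beside the spread between mice for all but the rarest members. DESeq2 1.42.0, other scaling, no filter, marker covariates and left-out libraries were alternatives, and the steps were tested on simulated data. Marker levels are CPM of unscaled totals. Class levels are means of log2 CPM, and figures use a pseudocount of 0.5 CPM. Promoters came from RefSeq, build GRCm38.p6.

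Members and lists were chosen with earlier results of these data known. Values per library are given for the members with the smallest adjusted p in each comparison (up to 4 per direction) and for Cpt1b, Ppara and Pdk4, other members by range or count, and up to 2 genes per pathway list, direction and comparison. A few values of other members were added after the data were seen.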

Additional observations from a re-analysis of the deposited data

Results flagged for a closer look

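The effect of the diet differed between the 4 strains for 11 members, by the interaction term of the fit without the library CAST/EiJ high-fat 1. The same term was called for 17.6% of all genes in that fit, and for 3.08% with all 24 libraries. With all 24 libraries 0 members passed that test with edgeR and DESeq2 called 0. An unadjusted p below 0.05 was found there for 2 members and for 4528 of 20035 genes. With the adipocyte marker level as a covariate on all libraries 7 passed with edgeR. That count has no share of all genes beside it and does not show an excess over all genes. The peroxisomal members were Pex11a (adjusted p = 0.00739), Scp2 (adjusted p = 0.0175), Acaa1b (adjusted p = 0.0317), Acaa1a (adjusted p = 0.0342), Hsd17b4 (adjusted p = 0.04002) and Abcd2 (adjusted p = 0.0467). The mitochondrial members were Echs1 (adjusted p = 0.0231), Cpt2 (adjusted p = 0.0316) and Decr1 (adjusted p = 0.0323). Crat (adjusted p = 0.0247) and Eci2 (adjusted p = 0.0478) are found in both compartments. In WSB/EiJ all 11 fell on the high-fat diet, and in C57BL/6J none passed. The WSB/EiJ high-fat libraries also had adipocyte markers below those of the standard diet. With the adipocyte level as a covariate and CAST/EiJ high-fat 1 also left out, 5 members passed the interaction (12.4% of all genes did). Of these 5, 4 were peroxisomal: Abcd2, Pex11a, Acox3 and Scp2.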

How the results depend on the processing

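Without the library CAST/EiJ high-fat 1 the counts were 5 for the diet in NZO/HiLtJ (0 with all libraries), 0 in CAST/EiJ (1), 30 in WSB/EiJ (4), 24 for the average (5) and 11 for the interaction (0). Of all genes, 64.4% and 71.6% were then called for strain differences on the 2 diets (49.6% and 56% with all libraries). Strain differences were called in that fit for 34 members under standard feeding (17) and 32 under high-fat feeding (10). For pairs on the standard diet they were 29 for CAST/EiJ (12) and 28 for WSB/EiJ (13) against C57BL/6J, 26 (8) and 27 (11) for NZO/HiLtJ against CAST/EiJ and WSB/EiJ, and 14 (3) for CAST/EiJ against WSB/EiJ. With the 6 Epcam-rich libraries left out, the diet in NZO/HiLtJ gave 21, where 10.8% of all genes rose and 10.1% fell. The interaction gave 2 (6.92% of all genes), and strain differences 35 and 34 on the 2 diets. The pairs gave 7 for NZO/HiLtJ, 31 for CAST/EiJ and 31 for WSB/EiJ against C57BL/6J, then 32, 30 and 16 in the order above. The diet in WSB/EiJ could not be fitted there. Counts in this section that have no share of all genes, here or above, show only how calls moved with the setting. They do not show an excess over all genes.

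With the adipocyte level as a covariate on all libraries the diet gave 1 in NZO/HiLtJ, 0 in CAST/EiJ and 21 in WSB/EiJ, the interaction 7, strain differences 36 and 28, and the pairs other than NZO/HiLtJ against C57BL/6J 28, 30, 27, 28 and 16. With that covariate and without CAST/EiJ high-fat 1, chosen after seeing the data, the diet gave 0 in each strain and on average, the interaction 5, strain differences 35 and 25, and these pairs 27, 30, 25, 28 and 12. The brown and beige covariate, also chosen after seeing the data, gave 0 for the diet in CAST/EiJ, 20 in WSB/EiJ and 19 on average, 9 for strain differences on the standard diet, 3 and 0 for CAST/EiJ and WSB/EiJ against C57BL/6J, 4 for NZO/HiLtJ and 6 for CAST/EiJ against WSB/EiJ. It turned the sign of 10 called differences. In CAST/EiJ against C57BL/6J these were Hadha (-0.38), Acaa2 (-0.0817), Etfdh (-0.17), Ehhadh (-0.53), Acaa1b (-0.52) and Ppara (-1.55), and in WSB/EiJ against C57BL/6J Cpt1b (-0.62), Acadvl (-0.0935), Hadhb (-0.16) and Acaa1b (-0.0493). Of 58 single member calls, 22 held and 26 were lost under it, and the cause was not tested. All 24 libraries entered this fit, and it was not repeated without CAST/EiJ high-fat 1.

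DESeq2 gave 1, 2 and 9 for the diet in NZO/HiLtJ, CAST/EiJ and WSB/EiJ, 11 on average, 13 for NZO/HiLtJ and 5 for WSB/EiJ against CAST/EiJ, and held all 58 calls. No filter on low counts gave 0 and 2 for the diet in CAST/EiJ and WSB/EiJ, and the muscle covariate 0 in CAST/EiJ. Without CAST/EiJ standard 2 and high-fat 1, chosen after seeing the data, the diet gave 0 in CAST/EiJ and 26 on average, and the interaction 8. Upper-quartile scaling moved no count by more than 1.5 times and lost 1 of 58 calls.

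Leaving out 1 library at a time gave 0 to 0 members for the diet in C57BL/6J, 0 to 5 in NZO/HiLtJ, 0 to 5 in CAST/EiJ, 0 to 30 in WSB/EiJ, 2 to 24 on average and 0 to 11 for the interaction. Strain differences gave 13 to 34 under standard and 7 to 32 under high-fat feeding. Against C57BL/6J the ranges were 0 to 1 for NZO/HiLtJ, 6 to 29 for CAST/EiJ and 4 to 28 for WSB/EiJ, and among the others 5 to 26 for NZO/HiLtJ against CAST/EiJ, 4 to 27 for NZO/HiLtJ against WSB/EiJ and 2 to 14 for CAST/EiJ against WSB/EiJ. The change of the peroxisomal less the mitochondrial level ranged from -0.11 to 0.02 in C57BL/6J, -0.16 to -0.14 in NZO/HiLtJ, -0.57 to -0.23 in CAST/EiJ and -0.30 to -0.23 in WSB/EiJ. With medians the peroxisomal less mitochondrial level, high-fat minus standard in C57BL/6J, was -0.18. The peroxisomal less mitochondrial level, high-fat minus standard in NZO/HiLtJ, was then -0.0619, the peroxisomal less mitochondrial level, high-fat minus standard in CAST/EiJ, -0.0492 and the peroxisomal less mitochondrial level, high-fat minus standard in WSB/EiJ, 0.0777. With members of both compartments counted as peroxisomal it was -0.12 in NZO/HiLtJ. No paired analysis was possible because the labels give no numbers that pair mice across groups.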
